A study of Danio rerio with 10 samples.

Results

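Homozygous fn10a mutant zebrafish embryos were compared with unrelated wild-type embryos at 36 hours post fertilization (hpf). The comparison takes the 4 whole-embryo libraries that the labels put in these groups, 2 homozygous mutant and 2 wild-type control libraries, of 10 in the series. Mutants have the genotype fn10a-/- and came from crosses of heterozygous fish; controls have the wild-type genotype and came from crosses of TL fish. A further pair of whole-embryo libraries held siblings of the mutants (fn10a+/- & +/+, both genotypes pooled). They were in the same fit, and their values are given for some of the genes and lists only. All fish are of the TL strain, each library pooled 30 embryos, and polyadenylated RNA of the whole embryo was sequenced with a strand-specific dUTP protocol. The 4 remaining libraries, of cell fractions, were not used here.

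Mutants and controls thus differ in genotype and also in parents, since the controls did not come from the mutants' crosses, and the effects of genotype and of parentage cannot be told apart in this comparison. The labels do not say whether the replicate numbers mark separate clutches, and p-values therefore describe how far these libraries spread, be it technical or biological. In RNA from whole embryos, fewer cells of a type and less RNA per cell cannot be told apart.

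The spliceosome removes introns from pre-mRNA. It is built from small nuclear ribonucleoproteins (snRNPs), each an snRNA with a ring of Sm or LSm proteins and its own specific proteins; U1 and U2 recognise the intron, and U4, U6 and U5 join as a preassembled tri-snRNP. Within U5, the GTPase Eftud2, the helicase Snrnp200 and the scaffold Prpf8 work together in activating and disassembling the machine. Loss of core splicing proteins in zebrafish is known for small heads and eyes and for cell death in the nervous system.

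Values are the authors' RPKM (reads per kilobase of transcript, scaled by their read total), given for replicate 1 and then replicate 2 of each group. Listed reads were 79226574 and 34060890 in mutants, against 73755759 and 36527992 in wild-type controls. Fold changes, standard errors and adjusted p-values come from edgeR's quasi-likelihood test on the counts of all 6 whole-embryo libraries with replicate number as a block. "Rose" and "fell" are kept for genes with an adjusted p under 0.05. Differences within a replicate number are log2(RPKM + 0.1) of the mutant library minus that of the control library with the same number, and understate the change of genes near 0.1 RPKM. Statements that groups overlap or not describe single genes, most of them picked by p or fold change. How many of all tested genes have groups that do not overlap was not counted.

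Libraries stood apart in more than genotype. Over the 6 whole-embryo libraries, replicate 1 and replicate 2 lay at opposite ends of the leading principal component (60.03% of the variance) in every group, and mutants lay apart from both other groups on the second (21.5%). Listed transcripts took a share of the authors' total that was 55.1% and 32.3% in mutants, against 54.2% and 33.7% in controls, so that RPKM of many genes are lower in replicate 2 of every group. Control replicate 2 also carried far more heat shock transcript than any other library: the 58 tested members of the heat shock list summed to 5423 and 2395 RPKM in mutants, against 5088 and 9804 RPKM in controls.

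Of 10147 genes tested, 194 rose in mutants (1.91%) and 157 fell (1.55%), 3.46% in either direction. All 351 differed in the same direction within replicate 1 and within replicate 2, which 65.7% of all tested genes did. Disagreement between the replicate numbers enters the error of the blocked fit. The calls thus favour genes that agree, and this agreement is no separate evidence for them. The median gene differed by -0.04 on the log2 scale within replicate 1 and by 0.04 within replicate 2. With control replicate 2 left out, the controls hold 1 library, and the spread of the fit comes from mutants and siblings alone. More genes were then called, among them every gene called with all libraries, and more still with control replicate 1 left out instead. This overlap is no separate evidence, and what the heat shock transcripts contribute to the larger counts was not tested. The same holds for counts without control replicate 2 given for the lists below. With only the 4 libraries compared, 46 were higher (0.453%) and 3 lower (0.0296%), all of them among the 194 and the 157; without mutant replicate 2 the counts were 20 and 0, with 733 lower genes at an unadjusted p under 0.05. Without the replicate block edgeR called no gene, with 292 higher and 375 lower at an unadjusted p under 0.05; DESeq2 with the block called 865 (8.52%) and 856 (8.44%), and limma 251 (2.47%) and 201 (1.98%). At an unadjusted p under 0.05 the reported fit holds 1348 higher (13.3%) and 1499 lower genes (14.8%), and the fit of the 4 libraries compared holds 841 (8.29%) and 952 (9.38%).

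**Figure D1:**
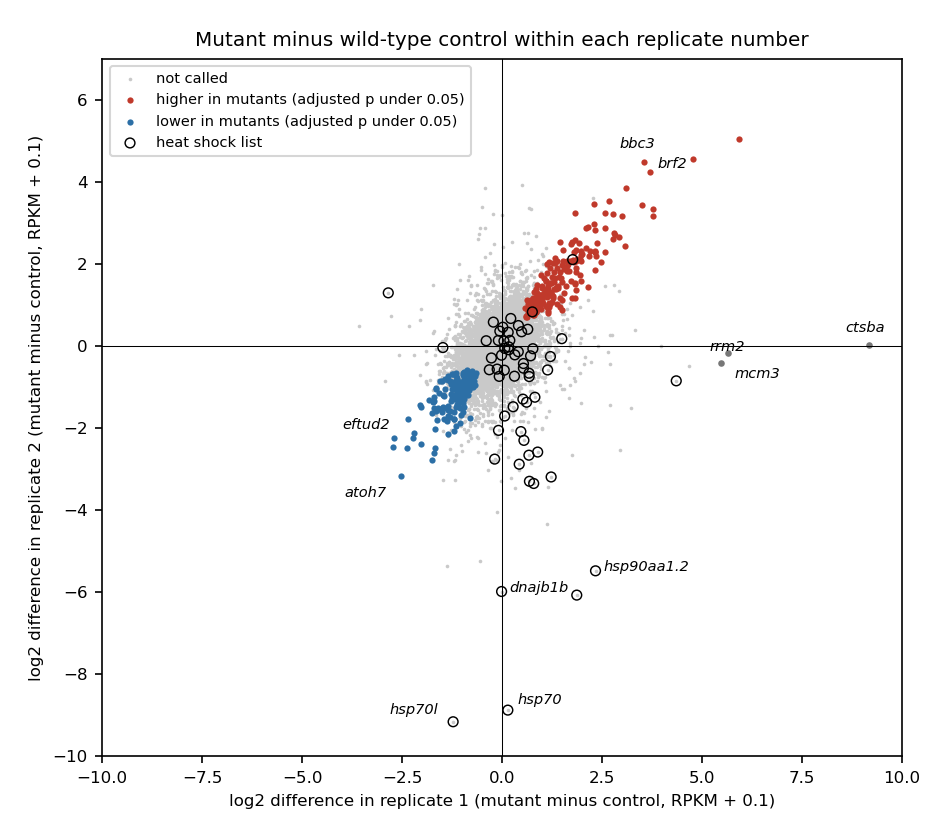
Each point is 1 of the tested genes, with the log2 difference of mutant minus control in replicate 1 across and in replicate 2 up; red and blue points have an adjusted p under 0.05 and rings mark the heat shock list. Called genes lie in the quadrants where both replicates have the same sign, while heat shock genes such as hsp70 reach -8.88 in replicate 2 beside 0.14 in replicate 1.

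No gene is named in the labels, which give the allele alone. That fn10a is a mutation of eftud2, the gene of the U5 GTPase, is known of the study. Its transcript (NM_200508, chromosome 3, 16009001 to 16033616, minus strand, danRer7) stood at 11.3 and 3.60 RPKM in mutants, against 30.2 and 10.5 RPKM in wild-type controls. The ranges overlap across replicate numbers, since mutant replicate 1 lies above control replicate 2, but within each number the mutant library is lower, by a log2 difference of -1.41 in replicate 1 and -1.52 in replicate 2. The transcript fell (log2 fold change -1.49, SE 0.131, edgeR adjusted p = 0.0113), to 0.356 of the control level. In the siblings it stood at 28.1 and 9.91 RPKM, next to the controls.

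Transcripts of several other U5 proteins were higher in the mutants. Of 8 tested U5 genes, 4 rose and 1, eftud2, fell. Over all genes tested 1.91% rose and 1.55% fell, the shares beside which the edgeR counts of every list here are read. The median log2 fold change of the U5 genes was 0.93 (0.74 within replicate 1 and 1.19 within replicate 2), against -0.01 for all genes tested. The helicase gene snrnp200, whose product unwinds U4 from U6, stood at 119 and 45.0 RPKM in mutants, against 35.6 and 7.72 RPKM in controls. Both mutant libraries lie above both control libraries, and the transcript rose 4.38-fold (log2 fold change 2.13, SE 0.201, edgeR adjusted p = 0.0134). ddx23, a DEAD-box helicase gene of the same particle, had 82.5 and 50.4 RPKM in mutants, against 23.6 and 10.2 RPKM in controls, and rose 4.13-fold (log2 2.05, SE 0.146, edgeR adjusted p = 0.00764). prpf6, whose product bridges U5 and U4/U6, had 46.5 and 27.22 RPKM in mutants, against 19.1 and 6.66 RPKM in controls (log2 1.64, SE 0.190, edgeR adjusted p = 0.0241); it has 2 records in the files, between which reads may be divided. For these helicase and bridge genes the groups do not overlap. The scaffold gene prpf8 stood at 132 and 42.4 RPKM in mutants, against 60.2 and 12.2 RPKM in controls, where mutant replicate 2 lies below control replicate 1, and rose 2.74-fold (log2 1.45, SE 0.173, edgeR adjusted p = 0.0254).

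Genes of the U4/U6 particle and the tri-snRNP rose widely. Of 15 tested, 10 rose and none fell, beside 1.91% and 1.55% of all genes. The median log2 fold change was 1.29 (1.44 within replicate 1 and 1.17 within replicate 2). lsm7, a subunit of the LSm ring that binds the end of U6 snRNA, stood at 244 and 246 RPKM in mutants, against 32.1 and 38.8 RPKM in controls (log2 2.78, SE 0.162, edgeR adjusted p = 0.00596). Its mutant values are nearly the same in both replicates and lie far above both controls. prpf31, whose product clamps U4 in the particle, had 94.4 and 65.3 RPKM in mutants, against 13.3 and 10.02 RPKM in controls (log2 2.75, SE 0.136, edgeR adjusted p = 0.00596). prpf3, a U4/U6 protein gene with 2 records, had 85.7 and 47.8 RPKM in mutants, against 12.4 and 7.78 RPKM in controls (log2 2.69, SE 0.136, edgeR adjusted p = 0.00596), and sart1, needed for joining U5 to U4/U6, had 142 and 69.5 RPKM in mutants, against 36.3 and 16.5 RPKM in controls (log2 2.01, SE 0.119, edgeR adjusted p = 0.00596). In all 4 genes the groups do not overlap, and the differences within the replicate numbers lie close together, for prpf31 2.82 in replicate 1 and 2.69 in replicate 2. With only the 4 libraries compared, 6 of the 15 were still called, beside 0.453% of all genes called higher.

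The Sm proteins, which form the ring on U1, U2, U4 and U5 snRNA, are encoded by genes with the highest median of all 34 lists described, a log2 fold change of 1.71 (1.61 within replicate 1 and 1.83 within replicate 2). Of 7 tested genes 5 rose and none fell, beside 1.91% and 1.55% of all genes. All 7 were above 0 in both replicates, where 32.6% of all genes tested were, and 44.4% of the fifth of genes with the highest mean RPKM. snrpd3 stood at 229 and 139 RPKM in mutants, against 45.6 and 19.6 RPKM in controls (log2 fold change 2.57, SE 0.149, edgeR adjusted p = 0.00596), and snrpd2 at 287 and 205 RPKM in mutants, against 79.9 and 49.2 RPKM in controls (log2 1.94, SE 0.125, edgeR adjusted p = 0.00752). The lowest mutant library of each lies above the highest control library. snrpe rose 4.19-fold (adjusted p = 0.0113) and snrpf 3.28-fold (adjusted p = 0.00865), both by edgeR.

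Of 24 tested genes of U1 and U2, 9 rose and none fell, beside 1.91% and 1.55% of all genes. The median log2 fold change was 0.67 (0.67 within replicate 1 and 0.71 within replicate 2). sf3a2 and sf3a3 encode subunits of SF3A, the part of U2 that helps it bind the branch site. sf3a2 had 120.3 and 122 RPKM in mutants, against 31.0 and 27.8 RPKM in controls (log2 2.03, SE 0.112, edgeR adjusted p = 0.00596), and sf3a3 56.6 and 57.2 RPKM in mutants, against 17.8 and 16.0 RPKM in controls (log2 1.74, SE 0.136, edgeR adjusted p = 0.00868). The replicates of each group are close to each other for both genes and the groups are far apart. htatsf1, whose product associates with U2, rose 5.70-fold, with 90.7 and 61.9 RPKM in mutants, against 20.3 and 8.17 RPKM in controls (log2 2.51, SE 0.223, edgeR adjusted p = 0.0113). snrpa1, the gene of the U2 protein A', rose 2.30-fold (edgeR adjusted p = 0.0134). These named genes are all of U2. The U1 protein genes snrnp70, snrpa and snrpc were not called, with log2 fold changes of 0.22, 0.16 and 0.15 (edgeR adjusted p = 0.308, 0.372 and 0.445). In the U4/U6, Sm and U1 and U2 lists no gene was lower at an unadjusted p under 0.05, nor by DESeq2 or limma.

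Among 38 tested genes of the Prp19 complex and the factors of the catalytic steps, 13 rose and none fell, beside 1.91% and 1.55% of all genes. The median log2 fold change was 0.41 (0.33 within replicate 1 and 0.63 within replicate 2). aqr, the gene of an intron-binding helicase, stood at 48.8 and 16.6 RPKM in mutants, against 13.6 and 3.22 RPKM in controls (log2 2.09, SE 0.1503, edgeR adjusted p = 0.00764), and crnkl1, a scaffold gene of the complex, at 64.8 and 21.4 RPKM in mutants, against 20.9 and 5.43 RPKM in controls (log2 1.80, SE 0.126, edgeR adjusted p = 0.00754). For crnkl1 both mutant libraries lie above both controls, though mutant replicate 2 only narrowly, and the same holds for aqr. cwc25, a factor of the branching step, rose 3.69-fold (edgeR adjusted p = 0.00764), and the record named rab43 in the files, whose accession the RefSeq gene table pairs with isy1, rose 3.70-fold (edgeR adjusted p = 0.00643). At an unadjusted p under 0.05 there were 22 higher and 2 lower members (13.3% and 14.8% of all genes), and DESeq2 called 19 and 2 (8.52% and 8.44% of all genes).

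SR proteins and other splicing regulators, which bind exons and steer splice site choice, did not share this pattern in their counts. Of 37 tested 2 rose and none fell, and the median log2 fold change was -0.11 (-0.09 within replicate 1 and 0.11 within replicate 2). The 2 were srsf11 (141 and 66.8 RPKM in mutants, against 89.1 and 31.2 RPKM in controls, log2 0.87, SE 0.134, edgeR adjusted p = 0.0414) and hnrnpa0a (167 and 74.9 RPKM in mutants, against 105 and 37.7 RPKM in controls, log2 0.81, SE 0.123, edgeR adjusted p = 0.0399). In both, mutant replicate 2 lies below control replicate 1, so the groups overlap. At an unadjusted p under 0.05, 5 members of the 37 were higher and 7 lower, beside 13.3% and 14.8% of all genes. DESeq2 called 5 higher and 4 lower, beside 8.52% and 8.44% of all genes, and both counts are above those shares. Over the 6 splicing lists joined, 43 of 129 tested genes rose and 1 fell (33.3% and 0.775%), with a median log2 fold change of 0.38 (0.31 within replicate 1 and 0.54 within replicate 2). Counts were 54 and 9 without control replicate 2 (8.28% and 8.52% of all genes), 15 and 0 with only the 4 libraries compared (0.453% and 0.0296%) and 57 and 7 by DESeq2 (8.52% and 8.44% of all genes).

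The largest rises included genes that make and modify the snRNAs themselves. brf2 (NM_001003536, chromosome 10, 42654386 to 42667407, minus strand) encodes the subunit of TFIIIB that RNA polymerase III uses at U6-type promoters. It stood at 17.95 and 10.5 RPKM in mutants, 2.94 and 1.29 RPKM in siblings and 1.304 and 0.458 RPKM in wild-type controls. The mutant libraries lie far above all others, and the sibling library lies above the control library of each number. The gene rose 17.3-fold over the controls (log2 fold change 4.11, SE 0.218, edgeR adjusted p = 0.00596), by 3.68 in replicate 1 and 4.24 in replicate 2; against siblings the log2 fold change was 2.86.

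snapc4 (NM_001258410, chromosome 5, 52855050 to 52884641, minus strand), the gene of the largest subunit of the complex that binds snRNA promoters, stood at 24.3 and 6.95 RPKM in mutants, 4.65 and 1.21 RPKM in siblings and 1.70 and 0.600 RPKM in controls. It rose 12.8-fold (log2 3.68, SE 0.164, edgeR adjusted p = 0.00596). mettl16 (NM_001003611, chromosome 15, 24545267 to 24599712, minus strand), which encodes the methyltransferase of U6 snRNA, stood at 24.1 and 12.2 RPKM in mutants, 6.0 and 2.58 RPKM in siblings and 2.75 and 0.763 RPKM in controls. It rose 11.5-fold (log2 3.52, SE 0.245, edgeR adjusted p = 0.00754). For snapc4 and mettl16 too the mutants lie above both other groups and each sibling library lies between the mutant and the control library of its number. The siblings were not called against the controls in any of these 3 genes (edgeR adjusted p = 0.565). Their log2 fold changes over the controls were nonetheless 1.26 for brf2, 1.18 for snapc4 and 1.36 for mettl16.

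snupn, the gene of snurportin, the adaptor that brings assembled snRNPs into the nucleus, rose 1.998-fold, with 14.6 and 7.77 RPKM in mutants, against 7.54 and 3.71 RPKM in controls (log2 1.0, SE 0.139, edgeR adjusted p = 0.0361). kiaa0947l, whose accession the gene table pairs with ice1, the gene of a scaffold of the elongation complex for snRNA genes in human cells, rose 9.02-fold: 8.81 and 10.2 RPKM in mutants, against 1.304 and 0.793 RPKM in controls (log2 3.17, SE 0.304, edgeR adjusted p = 0.0138). The list of snRNA synthesis and modification does not hold kiaa0947l. Of its 27 tested genes 5 rose, among them brf2, snapc4, mettl16 and snupn, and none fell. The median log2 fold change was only 0.08 (-0.18 within replicate 1 and 0.27 within replicate 2), with 6 higher and 4 lower at an unadjusted p (13.3% and 14.8% of all genes). With only the 4 libraries compared, 3 of the 27 were still called, beside 0.453% of all genes called higher.

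**Figure D2:**
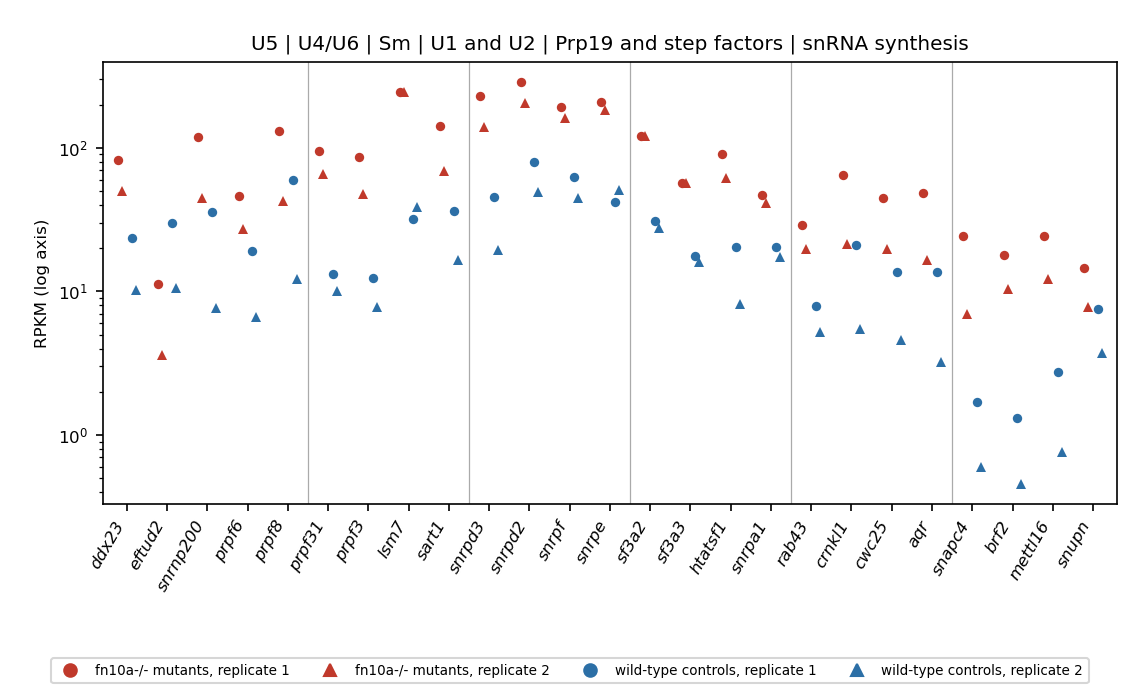
RPKM on a log axis of named genes of the 5 snRNP and step factor lists and of snRNA synthesis, with mutants (red) left of controls (blue), circles for replicate 1 and triangles for replicate 2. Within each replicate number the mutant library is higher for every gene shown except eftud2, at 11.3 and 3.60 RPKM in mutants, against 30.2 and 10.5 RPKM in controls.

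Genes of growth arrest and apoptosis were among the steepest rises. bbc3 (NM_001045472, chromosome 15, 23098767 to 23115128, minus strand) encodes a BH3-only protein that triggers the mitochondrial route of cell death. It stood at 6.85 and 3.77 RPKM in mutants, 0.257 and 0.109 RPKM in siblings and 0.496 and 0.0735 RPKM in wild-type controls. Control replicate 2 held 30 reads of it, and all 4 libraries of the other groups lie far below the mutants. It rose 23.2-fold (log2 fold change 4.54, SE 0.476, edgeR adjusted p = 0.0187), by 3.54 in replicate 1 and 4.48 in replicate 2. casp8, the gene of the initiator caspase of the death receptor route, stood at 12.2 and 9.15 RPKM in mutants, against 1.69 and 0.900 RPKM in controls, and rose 8.35-fold (log2 3.06, SE 0.242, edgeR adjusted p = 0.00881).

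gadd45aa, a growth arrest and DNA damage gene, stood at 9.81 and 11.5 RPKM in mutants, against 0.781 and 0.964 RPKM in controls (log2 fold change 3.60, SE 0.194, edgeR adjusted p = 0.00596) and its replicates lie close together in both groups. mdm2, which encodes a ubiquitin ligase, had 72.4 and 38.8 RPKM in mutants, against 18.02 and 8.18 RPKM in controls (log2 2.11, SE 0.146, edgeR adjusted p = 0.00754). phlda3, whose mammalian product represses Akt signalling, had 18.1 and 11.5 RPKM in mutants, against 2.97 and 1.12 RPKM in controls (log2 2.94, SE 0.249, edgeR adjusted p = 0.0108). The groups do not overlap in any of these genes. zgc:136826, paired in the gene table with rps27l, rose 5.41-fold, with 108 and 88.2 RPKM in mutants, against 20.6 and 15.5 RPKM in controls (log2 2.44, SE 0.124, edgeR adjusted p = 0.00596). In this list 11 of 59 tested genes rose and 1, the caspase gene casp2, fell (log2 -1.25, SE 0.182, edgeR adjusted p = 0.0374). The median log2 fold change was 0.23 (0.13 within replicate 1 and 0.25 within replicate 2): the rises were steep in a minority of members. At an unadjusted p under 0.05, 18 were higher and 11 lower, beside 13.3% and 14.8% of all genes. Called members numbered 15 and 5 without control replicate 2 (8.28% and 8.52% of all genes), 5 and 0 with only the 4 libraries compared (0.453% and 0.0296%) and 16 and 8 by DESeq2 (8.52% and 8.44% of all genes).

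The remaining large rises fall in no common list. ecd, whose Drosophila counterpart acts with Prp8 in splicing, stood at 21.9 and 8.43 RPKM in mutants, against 4.36 and 0.669 RPKM in controls (log2 2.91, SE 0.348, edgeR adjusted p = 0.0254). pde6d, the gene of a carrier of prenylated proteins, had 12.2 and 16.0 RPKM in mutants, against 1.38 and 2.85 RPKM in controls (log2 2.82, SE 0.251, edgeR adjusted p = 0.0113), and bmb, the zebrafish gene brambleberry for nuclear envelope fusion in early cleavage, had 8.24 and 5.51 RPKM in mutants, against 1.58 and 0.609 RPKM in controls (log2 2.75, SE 0.227, edgeR adjusted p = 0.0102). All 3 were higher in each mutant library than in either control.

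Of 19 tested genes of nonsense-mediated decay and the exon junction complex, the protein mark that splicing leaves on mRNA, 2 rose and 1 fell; 5 were higher and 2 lower at an unadjusted p under 0.05 (13.3% and 14.8% of all genes), and DESeq2 called 4 and 1 (8.52% and 8.44% of all genes). eif4a3, the helicase gene of the junction complex core, rose 2.502-fold, with 139.8 and 116 RPKM in mutants, against 65.7 and 38.7 RPKM in controls (log2 1.32, SE 0.143, edgeR adjusted p = 0.0198), and magoh, another core gene, rose 1.69-fold (log2 0.75, SE 0.111, edgeR adjusted p = 0.0382). pnrc2, whose product links decay to decapping, fell, to 43.6 and 16.6 RPKM in mutants, against 93.6 and 44.6 RPKM in controls (log2 -1.28, SE 0.159, edgeR adjusted p = 0.0290). Of 30 tested Integrator and 3' end processing genes none rose and 1 fell: ints2, a subunit of the complex that cleaves the ends of snRNA transcripts, at 1.76 and 0.761 RPKM in mutants, against 5.19 and 2.53 RPKM in controls (log2 -1.65, SE 0.148, edgeR adjusted p = 0.0113). Its groups do not overlap, and its within-replicate differences were -1.51 in replicate 1 and -1.61 in replicate 2. More of the 30 were lower by other counts: 10 lower and none higher at an unadjusted p under 0.05 (14.8% and 13.3% of all genes), 8 lower and none higher by DESeq2 (8.44% and 8.52%), and again 8 and none without control replicate 2 (8.52% and 8.28%). Among 57 nuclear pore and transport genes none was called by edgeR. At an unadjusted p under 0.05, 5 were higher and 7 lower, smaller shares than the 13.3% and 14.8% of all genes. DESeq2 called 4 higher and 7 lower, beside 8.52% and 8.44% of all genes, and its lower count is above that share.

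The genes that fell were led by transcription factors of the developing nervous system. Of 71 tested genes of neural progenitors and Notch signalling, the pathway that keeps progenitors from differentiating, 13 fell and none rose, 18.3% against 1.55% of all genes; the median log2 fold change was -0.33 (-0.54 within replicate 1 and -0.24 within replicate 2). pou3f1, a POU factor gene, stood at 16.0 and 6.93 RPKM in mutants, against 49.7 and 24.6 RPKM in controls (log2 fold change -1.74, SE 0.139, edgeR adjusted p = 0.00933). sox11b and sox11a, SoxC factor genes of young neurons and progenitors, stood at 52.6 and 43.8 RPKM and at 26.4 and 15.09 RPKM in mutants, against 117 and 102 RPKM and 57.3 and 35.4 RPKM in controls. Both mutant libraries lie below both controls for all 3 genes, and sox11b and sox11a fell to 0.437 and 0.441 of the control level (edgeR adjusted p = 0.0166 and 0.0191).

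sox12, also a SoxC gene, stood at 0.947 and 1.305 RPKM in mutants, against 3.45 and 9.63 RPKM in controls (log2 fold change -2.41, SE 0.321, edgeR adjusted p = 0.0336), the steepest fall among genes with a full name and a mean of 5 RPKM or more in the higher group. Effectors of Notch fell as well: LOC100149066, paired in the gene table with her4.4, stood at 12.7 and 5.82 RPKM in mutants, against 41.2 and 16.9 RPKM in controls (log2 -1.63, SE 0.118, edgeR adjusted p = 0.00782), and her4.3 at 0.144 and 3.76 RPKM in mutants, against 0.326 and 12.9 RPKM in controls (log2 -1.57, SE 0.235, edgeR adjusted p = 0.0394). her4.3 is nearly absent from replicate 1 of both groups, and its groups overlap across numbers; members of the her4 family are near-identical copies whose reads may be divided. pou3f2a, another POU factor gene, fell to 2.36 and 1.05 RPKM in mutants, against 7.87 and 2.62 RPKM in controls (log2 -1.54, SE 0.160, edgeR adjusted p = 0.0179). Of the 71 genes 26 were lower and 1 higher without control replicate 2, beside 8.52% and 8.28% of all genes. With only the 4 libraries compared edgeR called none of the 71, with 30 lower and 1 higher at an unadjusted p under 0.05, against 9.38% and 8.29% of all genes in that fit. DESeq2 with all libraries called 28 lower and 1 higher, against 8.44% and 8.52% of all genes.

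Proneural factors and genes of differentiating neurons fell in 10 of 50 tested cases (20%) and rose in none, with a median log2 fold change of -0.42 (-0.31 within replicate 1 and -0.46 within replicate 2). atoh7, the factor that makes retinal ganglion cells, stood at 0.102 and 0.628 RPKM in mutants, 0.581 and 3.86 RPKM in siblings and 1.07 and 6.48 RPKM in controls. It was lower in the mutant library of each number, with log2 differences of -2.54 in replicate 1 and -3.18 in replicate 2, and fell to 0.0943 of the control level (log2 fold change -3.41, SE 0.233, edgeR adjusted p = 0.00754). bcl11ab and bcl11aa, zinc finger genes of neurons, stood at 2.34 and 1.97 RPKM and 1.78 and 1.81 RPKM in mutants, against 11.3 and 9.77 RPKM and 5.84 and 5.67 RPKM in controls. Their replicates lie close together within each group, and the groups do not overlap. The log2 fold changes were -2.30 ± 0.196 and -1.69 ± 0.183 (SE; edgeR adjusted p = 0.0110 and 0.0198). atoh1a, the proneural factor of the rhombic lip and of hair cells, fell to 3.71 and 4.396 RPKM in mutants, against 10.6 and 10.2 RPKM in controls (log2 -1.38, SE 0.1505, edgeR adjusted p = 0.0203). Without control replicate 2, 17 of the 50 genes were lower and none higher (8.52% and 8.28% of all genes), and with only the 4 libraries compared 2 were lower (0.0296%). DESeq2 called 22 lower and 1 higher (8.44% and 8.52%).

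In the retina and lens list, 2 of 20 tested genes fell and none rose. rx2, a retinal homeobox gene, stood at 1.35 and 0.259 RPKM in mutants, against 7.29 and 1.14 RPKM in controls (log2 -2.31, SE 0.233, edgeR adjusted p = 0.0166), and rorb, an orphan receptor gene of the retina, at 1.31 and 0.774 RPKM in mutants, against 4.45 and 4.80 RPKM in controls (log2 -2.19, SE 0.282, edgeR adjusted p = 0.0310). For rx2 mutant replicate 1 lies above control replicate 2, and for rorb the groups do not overlap. The list's medians differ between the numbers, -0.47 within replicate 1 and 0.08 within replicate 2, and 6 of the 20 were lower and none higher at an unadjusted p (14.8% and 13.3% of all genes).

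Of 48 tested neural crest and pigment genes 3 fell and none rose, 5 were higher and 6 lower at an unadjusted p (13.3% and 14.8% of all genes), and the median log2 fold change was -0.01 (-0.02 within replicate 1 and 0.11 within replicate 2). ednrb1a (current name ednrba), the endothelin receptor of pigment cells, stood at 0.293 and 0.413 RPKM in mutants, against 2.46 and 2.34 RPKM in controls (log2 fold change -2.79, SE 0.262, edgeR adjusted p = 0.0134). Its control level is low but nearly the same in both replicates, and both mutant libraries lie below it. sox9b and sox9a, factors of crest and cartilage, fell to 5.92 and 4.25 RPKM and 12.2 and 3.86 RPKM in mutants, against 13.8 and 10.6 RPKM and 21.7 and 7.46 RPKM in controls (log2 -1.28 ± 0.130 and -0.90 ± 0.128, SE; edgeR adjusted p = 0.0166 and 0.0365). Siblings stood at 14.8 and 4.64 RPKM for sox9a, between the groups, and the mutants were not called against them (edgeR adjusted p = 0.332).

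Markers of dividing cells were lower in a few members. Of 72 tested cell cycle and replication genes 3 fell and none rose; the medians were -0.34 within replicate 1 and 0.10 within replicate 2. top2a, topoisomerase II, fell to 28.2 and 10.6 RPKM in mutants, against 55.4 and 23.2 RPKM in controls (log2 -1.06, SE 0.121, edgeR adjusted p = 0.0231). mki67, a marker of cycling cells, fell to 57.7 and 19.2 RPKM in mutants, against 107 and 34.5 RPKM in controls (log2 -0.88, SE 0.118, edgeR adjusted p = 0.0344), and aurkb, a mitotic kinase gene, to 17.6 and 18.9 RPKM in mutants, against 30 and 32.3 RPKM in controls (log2 -0.78, SE 0.116, edgeR adjusted p = 0.0383). The groups separate fully for aurkb and within each number for the others. Without control replicate 2, 16 of the 72 were lower and 3 higher (8.52% and 8.28% of all genes). DESeq2 with all libraries called 9 lower and 1 higher (8.44% and 8.52% of all genes), and 15 were lower and 3 higher at an unadjusted p (14.8% and 13.3%).

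Several of the steepest falls lie outside these lists. lrrn1, a leucine-rich repeat membrane protein gene of neural tissue, stood at 35.8 and 10.05 RPKM in mutants, against 116 and 41.1 RPKM in controls (log2 -1.87, SE 0.163, edgeR adjusted p = 0.0113). gpm6bb, a neural membrane glycoprotein gene, had 8.95 and 4.30 RPKM in mutants, against 26.9 and 12.6 RPKM in controls (log2 -1.58, SE 0.123, edgeR adjusted p = 0.00865). The groups do not overlap for either gene. pebp1, the gene of a Raf kinase inhibitor, osgep, a tRNA modification enzyme, and psmg3, a proteasome assembly chaperone, fell by 1.66, 1.66 and 1.55 on the log2 scale (edgeR adjusted p = 0.0138, 0.0363 and 0.0332). brd2a, a bromodomain gene with 2 records, fell by 1.55 (adjusted p = 0.0391 by edgeR), and col17a1a, a hemidesmosome collagen gene, by 1.55 (adjusted p = 0.0241 by edgeR).

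znf710a, a zinc finger gene, had 4.82 and 1.64 RPKM in mutants, 8.46 and 2.28 RPKM in siblings and 14.8 and 4.89 RPKM in wild-type controls. ier5l, an immediate early response gene, had 11.13 and 7.92 RPKM in mutants, 19.3 and 14.1 RPKM in siblings and 24.8 and 31.2 RPKM in wild-type controls. Against the controls both fell (adjusted p = 0.0108 and adjusted p = 0.0401 by edgeR), while against the siblings the adjusted p was 0.0922 and 0.151. The siblings were not called against the controls in either gene (edgeR adjusted p = 0.565). Other named genes were also called against the controls but not the siblings, among them rorb, pnrc2, brd2a, smyhc1, smyhc3, cav3 and hnrnpa0a. Such genes also included sox12, pou3f2a, her4.3, sox9b, mki67, aurkb, nmd3 and hspa4b. For sox12 the log2 fold change against siblings was -2.08 (edgeR adjusted p = 0.0514). For rorb the log2 fold change was -2.19 against controls and -1.09 against siblings (edgeR adjusted p = 0.113 against siblings). For hnrnpa0a it was 0.81 and 0.39 (edgeR adjusted p = 0.156 against siblings). Others, such as eftud2 and snrnp200, were called against both groups (edgeR adjusted p = 0.0184 and 0.0285 against siblings).

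**Figure D3:**
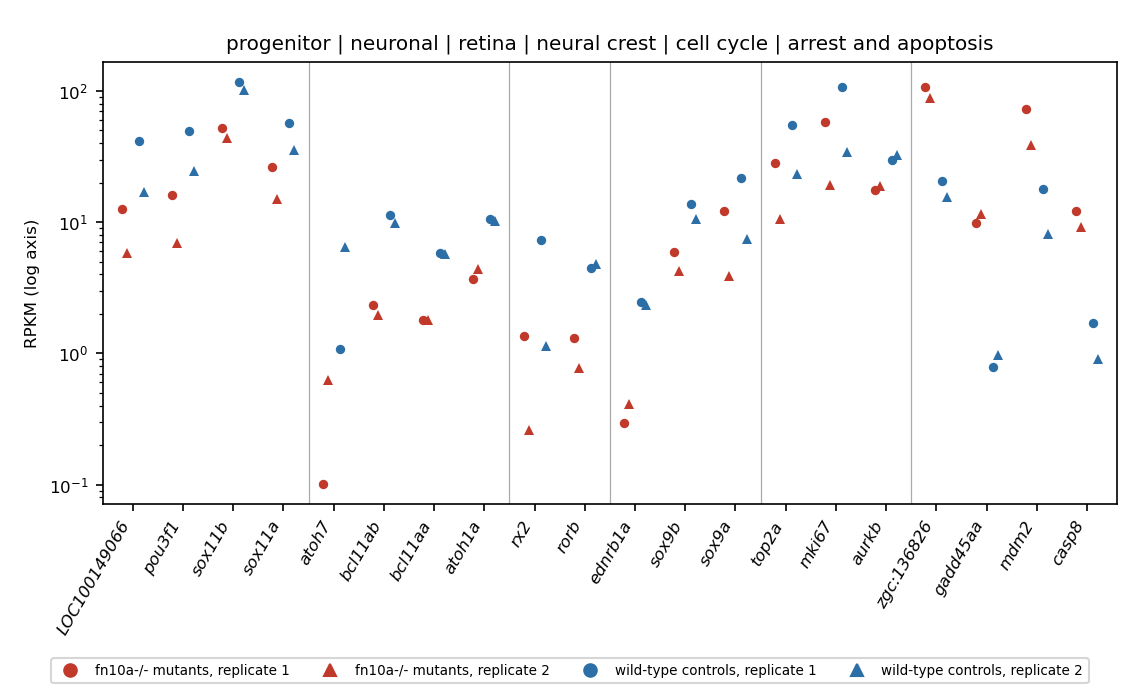
RPKM on a log axis of named genes of the neural, retinal, crest, cell cycle and arrest lists, with mutants (red) left of controls (blue), circles for replicate 1 and triangles for replicate 2. Within each replicate number the mutant library is the lower one for all genes in the 5 sections on the left, such as atoh7 with 0.102 and 0.628 RPKM in mutants, and the higher one in the section on the right.

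Lists of other tissues had few calls by edgeR. Of 37 erythroid genes none passed (edgeR); the smallest adjusted p was that of hbbe2, an embryonic globin gene, with 30.3 and 12.6 RPKM in mutants, against 61.9 and 67.2 RPKM in controls (adjusted p = 0.0662 by edgeR). The erythroid list summed to 6593 and 7895 RPKM in mutants, 12081 and 14822 RPKM in siblings and 7195 and 16598 RPKM in controls. Between mutants and controls that difference lay almost wholly in replicate 2. Among 23 leukocyte genes lyz, lysozyme, fell to 20.6 and 24.3 RPKM in mutants, against 49.98 and 61.7 RPKM in controls (log2 -1.32, SE 0.147, edgeR adjusted p = 0.0212), and mmp9, a gelatinase gene, rose to 2.57 and 2.68 RPKM in mutants, against 1.24 and 0.914 RPKM in controls (log2 1.29, SE 0.184, edgeR adjusted p = 0.0365). Of 25 endothelial genes, 37 of the Hedgehog pathway, floor plate and notochord, 27 of pronephros, liver and pancreas, 46 Hox genes and 29 of the yolk syncytial layer, none was called by edgeR. At an unadjusted p under 0.05 the higher and lower members numbered 4 and 5 in the erythroid list, 1 and 0 in the endothelial, 11 and 5 in the Hedgehog, 5 and 3 in the pronephros, liver and pancreas, 7 and 3 in the Hox and 1 and 0 in the yolk syncytial layer list, beside 13.3% and 14.8% of all genes. The higher members of the Hedgehog, the pronephros, liver and pancreas and the Hox list are above that share, and the other counts are below theirs. DESeq2 called 7 higher and 4 lower Hedgehog genes and 2 and 4 erythroid, 3 and 2 pronephros, liver and pancreas, 3 and 0 Hox, 1 and 0 yolk syncytial layer and no endothelial genes, beside 8.52% and 8.44% of all genes. In the leukocyte list 2 were higher and 5 lower at an unadjusted p (13.3% and 14.8% of all genes), and DESeq2 called 1 and 4 (8.52% and 8.44%). Both of its lower counts are above the share of all genes, and both higher counts are below.

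Few muscle and matrix genes passed the edgeR test, while more were higher at an unadjusted p under 0.05. Of 67 skeletal muscle genes 4 rose and none fell, and the median log2 fold change was 0.37 (0.26 within replicate 1 and 0.47 within replicate 2); 27 were higher and 3 lower at an unadjusted p (13.3% and 14.8% of all genes), and DESeq2 called 22 and 1 (8.52% and 8.44% of all genes). The slow myosin genes smyhc1 and smyhc3 stood at 389.9 and 126 RPKM and 41.0 and 15.7 RPKM in mutants, against 235 and 61.4 RPKM and 26.8 and 7.12 RPKM in controls (log2 0.87 ± 0.134 and 0.87 ± 0.144, SE; edgeR adjusted p = 0.0414 and 0.0483), and, as near-identical copies, may share reads. They were higher in the mutant library of each number, with ranges that overlap across numbers. klhl31, a myogenic Kelch gene, rose 2.60-fold and cav3, muscle caveolin, 1.67-fold (edgeR adjusted p = 0.0365 and 0.0474). Against the siblings none of these 4 muscle genes was called (edgeR adjusted p from 0.0817 for klhl31 to 0.186 for smyhc3). The skeletal muscle list summed to 14868 and 5423 RPKM in mutants, 16914 and 5945 RPKM in siblings and 13617 and 5038 RPKM in controls. Siblings thus lay above the mutants in both replicates. Of 47 collagen, laminin and matrix genes 2 rose: mmp2, a gelatinase gene, to 73.8 and 56.6 RPKM in mutants, against 24.2 and 20.5 RPKM in controls (log2 1.53, SE 0.124, edgeR adjusted p = 0.00971), and col18a1, a basement membrane collagen gene (log2 0.96, SE 0.124, edgeR adjusted p = 0.0310). The median of the 47 was 0.27, with 18 higher and 2 lower at an unadjusted p (13.3% and 14.8% of all genes), 14 and 1 called by DESeq2 (8.52% and 8.44% of all genes) and 12 and 0 without control replicate 2 (8.28% and 8.52% of all genes).

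The epidermal list leaned to higher values, with a median log2 fold change of 0.19 (0.05 within replicate 1 and 0.33 within replicate 2). In the fit 27 of 37 genes were above 0, against 48.6% of all genes and 61.1% of the fifth of genes with the highest mean RPKM. In all, 10 were higher and 2 lower at an unadjusted p (13.3% and 14.8% of all genes), and DESeq2 called 7 and 2 (8.52% and 8.44% of all genes). Its summed level was 19832 and 17786 RPKM in mutants, 18466 and 15120 RPKM in siblings and 16761 and 14821 RPKM in controls. The 2 members called by edgeR went the other way and fell: col17a1a, a hemidesmosome collagen gene, and krt15, a keratin gene, at 2.94 and 4.54 RPKM in mutants, against 5.44 and 10.5 RPKM in controls (log2 -1.06, SE 0.168, edgeR adjusted p = 0.0432). Of 22 cardiac genes 1 fell, ankrd1b, a titin-binding ankyrin repeat gene (log2 -1.51, SE 0.243, edgeR adjusted p = 0.0450). The cardiac medians were 0.04 within replicate 1 and 0.19 within replicate 2, with 6 higher and 1 lower at an unadjusted p (13.3% and 14.8% of all genes) and 2 and 1 called by DESeq2 (8.52% and 8.44% of all genes).

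Of 92 ribosome biogenesis genes tested 3 rose, with a list median of 0.44 (0.17 within replicate 1 and 0.68 within replicate 2): nmd3, the export adaptor of the large subunit, 3.06-fold, nip7, 2.04-fold, and nifk, 1.81-fold (edgeR adjusted p = 0.0353, 0.0357 and 0.0358). At an unadjusted p under 0.05, 43 of the 92 were higher and 1 lower, against 13.3% and 14.8% of all genes, and DESeq2 called 31 and 1, against 8.52% and 8.44%. Without control replicate 2 the list median was smaller, at 0.25. Of 74 respiratory chain genes cox7a3 rose (log2 0.85, SE 0.133, edgeR adjusted p = 0.0415), and the list median was 0.30 (0.34 within replicate 1 and 0.23 within replicate 2). In both replicates 57 of 74 members were above 0, against 32.6% of all genes and 44.4% of the fifth of genes with the highest mean RPKM. Of the 74, 23 were higher and 3 lower at an unadjusted p (13.3% and 14.8% of all genes), and DESeq2 called 11 and 1 (8.52% and 8.44% of all genes). None of 81 cytoplasmic ribosomal protein genes (median -0.10, -0.05 within replicate 1 and -0.18 within replicate 2) and none of 45 proteasome genes (median 0.15, 0.20 within replicate 1 and 0.15 within replicate 2) was called by edgeR; at an unadjusted p under 0.05 there were 1 higher and 8 lower ribosomal protein genes and 8 higher and 2 lower proteasome genes, beside 13.3% and 14.8% of all genes. DESeq2 called 1 higher and 5 lower ribosomal protein genes and 5 higher and 2 lower proteasome genes, beside 8.52% and 8.44% of all genes. Without control replicate 2, 23 respiratory chain genes were higher and 2 lower, and 18 skeletal muscle genes were higher and 1 lower, read against 8.28% and 8.52% of all genes.

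**Figure D4:**
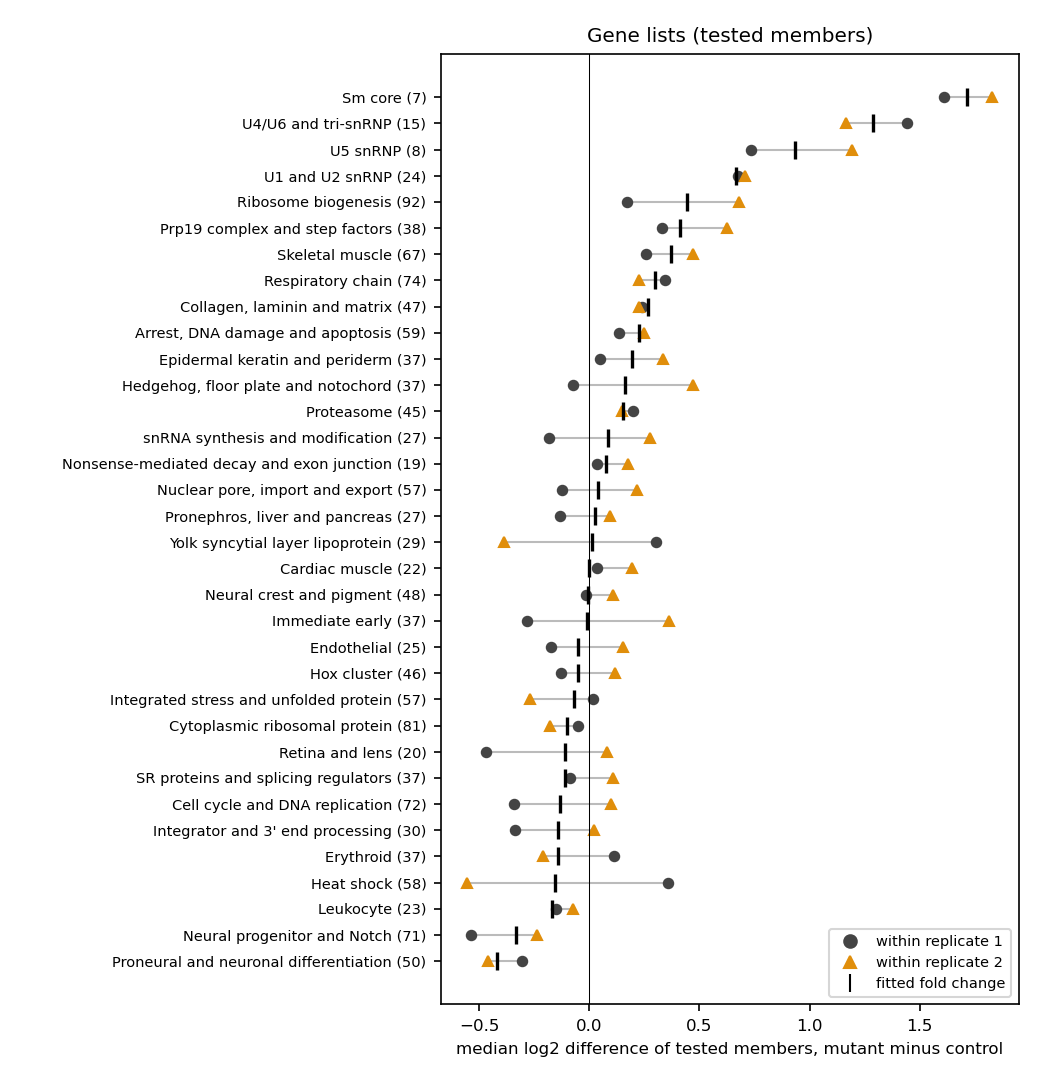
Median log2 difference, mutant minus control, of the tested members of each of the 34 gene lists, within replicate 1 (circles), within replicate 2 (triangles) and as the fitted fold change (bars); the number of tested members is in brackets. The snRNP lists stand at the top, with 1.71 for the Sm genes, the neural lists at the bottom, and the heat shock list is the most divided, with 0.36 within replicate 1 and -0.55 within replicate 2.

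Heat shock genes, whose products refold or hold damaged proteins, gave opposite answers in the 2 replicate numbers. The median log2 difference of the 58 tested members was 0.36 within replicate 1 and -0.55 within replicate 2. hsp70, the gene of the inducible chaperone, with 2 records, stood at 9.36 and 4.72 RPKM in mutants, against 8.48 and 2271 RPKM in wild-type controls, and hsp70l, a near copy of it, at 1.88 and 2.76 RPKM in mutants, against 4.54 and 1642 RPKM in controls. hsp90aa1.2, an Hsp90 gene, stood at 59.7 and 28.5 RPKM in mutants, against 11.8 and 1281 RPKM in controls. One library, control replicate 2, holds nearly all of these transcripts, and in siblings hsp70 stood at 4.47 and 0.865 RPKM. The Hsp40 gene dnajb1b, at 6.33 and 7.502 RPKM in mutants, against 6.40 and 483 RPKM in controls, and hspbp1, an Hsp70 co-factor gene, at 4.66 and 3.89 RPKM in mutants, against 2.07 and 80.7 RPKM in controls, had the same shape.

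None of these was called, with adjusted p of 0.231 for hsp70 and 0.176 for hsp70l by edgeR. Without control replicate 2 the median of the list was 0.40, and 19 of the 58 genes were higher and none lower (8.28% and 8.52% of all genes); with all libraries 4 were higher and 1 lower at an unadjusted p (13.3% and 14.8% of all genes). The 2 members called with all libraries were higher in both replicates: hsf1, the gene of the transcription factor that turns on heat shock genes, at 25.4 and 9.52 RPKM in mutants, against 7.41 and 2.14 RPKM in controls (log2 fold change 1.95, SE 0.137, edgeR adjusted p = 0.00754), and hspa4b, an Hsp110 gene, at 77.0 and 46.1 RPKM in mutants, against 45.6 and 25.9 RPKM in controls (log2 0.78, SE 0.109, edgeR adjusted p = 0.0363). In siblings hsf1 stood at 7.63 and 2.27 RPKM, next to the controls. Of 57 genes of the integrated stress response and the unfolded protein response edgeR called 1, atf4b1 (current name atf4a), a transcription factor gene, which fell (log2 -0.70, SE 0.113, edgeR adjusted p = 0.0457). Of the 57, 3 were higher and 10 lower at an unadjusted p (13.3% and 14.8% of all genes), and DESeq2 called 2 and 11 (8.52% and 8.44% of all genes). Of 37 immediate early genes 1 fell, ier5l, and the medians were -0.28 within replicate 1 and 0.36 within replicate 2; 3 were higher and 10 lower at an unadjusted p (13.3% and 14.8% of all genes), and DESeq2 called 2 and 7 (8.52% and 8.44% of all genes).

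Replicate numbers disagreed in other genes too. Among 4398 genes with 10 RPKM or more in at least 1 of the 4 libraries, the difference in replicate 2 was lower than that in replicate 1 by more than 2 log2 units in 45 and higher in 13; 16 of the 45 were among the 46 heat shock genes at this level. Their values are descriptions with no test. ctsba, a cathepsin B gene, was listed at 0 reads in control replicate 1 and stood at 57.4 and 70.8 RPKM in mutants, 45.9 and 69.9 RPKM in siblings and 0 and 69.5 RPKM in controls. rrm2, ribonucleotide reductase, stood at 5.48 and 60.1 RPKM in mutants, 12 and 97.2 RPKM in siblings and 0.0253 and 80.6 RPKM in controls. mcm3, a replication helicase gene, had 5.32 and 13.5 RPKM in mutants, 9.30 and 15.3 RPKM in siblings and 0.00743 and 15.3 RPKM in controls. In each of these, control replicate 1 is the library that stands alone, near 0.

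Of the 10 genes with the largest difference in the other direction, cfhl2, a complement factor H-like gene, led, with 11.6 and 3.40 RPKM in mutants, against 15.8 and 0.144 RPKM in controls, and capn2l, a calpain gene, had 8.60 and 18.01 RPKM in mutants, against 6.05 and 1.101 RPKM in controls. ctssb.1, a cathepsin S gene, had 41.2 and 25.1 RPKM in mutants, against 86.6 and 6.26 RPKM in controls, and rbm22, a splicing factor gene, 1.09 and 18.3 RPKM in mutants, against 4.74 and 9.77 RPKM in controls. In cfhl2, capn2l and ctssb.1 control replicate 2 is the lowest of the 4 libraries, and in rbm22 mutant replicate 1 is. The lens crystallin genes crybb1 and cryba1b stood at 47.8 and 14.8 RPKM and 35.1 and 16.3 RPKM in mutants, against 67.7 and 1.32 RPKM and 47.0 and 2.12 RPKM in wild-type controls. Siblings had 86.5 and 1.06 RPKM and 59.9 and 1.34 RPKM. In replicate 1 the mutants are thus below the controls and siblings, and in replicate 2 above both. hspb9, a small heat shock gene, was lower in mutants in replicate 1 and higher in replicate 2, with 5.20 and 31.2 RPKM in mutants, against 38.1 and 12.7 RPKM in controls. smtnl1, a smoothelin-like muscle gene, had 24.7 and 10.9 RPKM in mutants, against 37.5 and 1.70 RPKM in controls. No gene of this paragraph was called in the fit.

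Called genes differed in their structure, measured as the genomic span of a record minus its transcript length. Of 229 tested genes with at most 50 intron bases, 15 fell and 2 rose (6.55% and 0.873%), and of 384 with 51 to 1000 intron bases 21 fell and 6 rose (5.47% and 1.56%). Genes with 3001 to 10000 intron bases had the reverse balance, with 81 of 2999 higher and 29 lower (2.7% and 0.967%). The balance did not run on with length: of 1816 genes with 30001 to 100000 intron bases 16 rose and 28 fell (0.881% and 1.54%), and of 450 above 100000 4 rose and 8 fell (0.889% and 1.78%). Median log2 fold changes were -0.16 at up to 50 intron bases, 0.02 at 3001 to 10000 and -0.09 above 100000. The medians of these classes were -0.21, 0.02 and -0.16 within replicate 1, and -0.02, 0.05 and -0.03 within replicate 2. The 15 intronless genes that fell were amer2, atoh1a, atoh7, bhlhe22, foxg1b, her2, ier5l, mab21l2, nrarpa, pou3f1, pou3f2a, pou3f2b, sox11a, sox11b and sox3, most of them genes of neural transcription factors, so that intron content and neural function move together here and their parts in the result were not tested. The 2 that rose were fahd1 and hnrnpa0a.

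**Figure D5:**
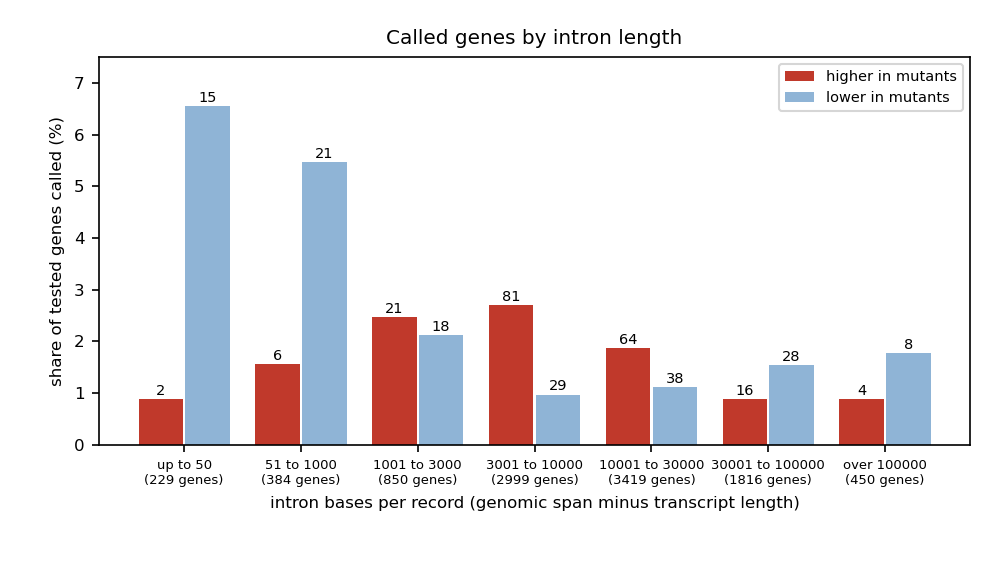
Share of tested genes called higher (red) or lower (light blue) in mutants, by the intron bases of the record; figures on the bars are numbers of genes. Lower calls are 6.55% of genes with at most 50 intron bases, 0.967% of those with 3001 to 10000 and 1.78% of those above 100000.

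Higher calls were more frequent among genes with a higher mean RPKM. That mean is over all 6 libraries, mutants included, so a gene's own rise lifts its class. The share that rose was 0.739% among the 2030 genes with the lowest mean and 4.09% among the 2030 with the highest. The share that fell was 1.48% and 1.67%. Median log2 fold changes in these classes were -0.12 and 0.10. At an unadjusted p under 0.05, 134 and 413 genes were higher, and 318 and 211 lower. How far the classing or the number of reads accounts for these values was not tested. Of 101 tested genes within 5 Mb of eftud2 on chromosome 3 (danRer7), 1 rose and 2 fell, among them eftud2 itself (0.99% and 1.98%, near the 1.91% and 1.55% of all genes), and on the rest of that chromosome 11 of 415 rose and 8 fell. By chromosome, the share that rose lay between 0.932% and 3.67%.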

How the data were processed

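Polyadenylated RNA of whole embryos was measured in 6 libraries, of which 4 are compared; the 4 fraction libraries were not used here. Reads were aligned with TopHat2 2.0.8 to danRer7, per the submitters' processing notes. Which tool counted the reads, and whether it used strand, are details not given in the sources used here; genes that overlap or run antisense to each other may therefore share reads. The deposited files list 15865 transcript records with whole-number read counts, not normalized, and the authors' RPKM, which per the file headers and values divide the count by transcript length and by a total that includes reads outside the listed transcripts. Replicate 1 files have another header and record starts that differ by 1 from the replicate 2 files; coordinates are given as 1-based. Listed reads ranged from 34060890 to 82752349 per library, and their number limits counting precision only.

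For each of 14563 symbols the record with most reads was kept, and the 10147 whose mean over the 6 libraries reached 1 RPKM were tested with edgeR 4.0.16 in R 4.3.3 (TMM scaling, glmQLFit and glmQLFTest, Benjamini-Hochberg adjustment over all genes tested, threshold 0.05) in 1 model of 3 groups and the replicate number as a block, which leaves 2 residual degrees of freedom. The block comes from the shared replicate numbers of the labels; deviations of same-numbered libraries from their group means correlated across genes at 0.713 for mutants and controls, 0.866 for mutants and siblings and 0.757 for controls and siblings. Within-replicate differences use log2(RPKM + 0.1). The standard error is the absolute log2 fold change divided by the square root of F. The scripts were tested on simulated data.

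The comparison, its gene lists and its tests were chosen with earlier results of these data known. Named genes are the 15 largest rises and falls among called genes with the same sign in both replicates, a mean of 5 RPKM or more in the higher group and no placeholder name; up to 4 called members of each list by p, or the 2 with the smallest p where none was called; the 10 largest replicate differences each way; and eftud2, snrnp200 and prpf8. Some genes that the rule takes are not printed, and some are printed outside it, such as casp2, snrnp70, snrpa and snrpc. The joined splicing list, the joined arrest list (2 lists) and the intron, level and position classes were set after the data were seen. Of the symbols, 13870 had an accession in the RefSeq gene table, used for current names only. Results for 1 gene are not reported here, though counts include it. Alternatives were other scalings, filters and pseudocounts, no block, all records, limma 3.58.1, DESeq2 1.42.0 and each library left out.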

Additional observations from a re-analysis of the deposited data

How the results depend on the processing

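The replicate block decides the calls: with no replicate block 0 genes were higher and 0 lower (667 in all had an unadjusted p under 0.05; the smallest adjusted p was 0.14), against 194 and 157 with it. With the block and only the 4 libraries compared, the counts were 46 and 3; with DESeq2 865 and 856. With limma on log2(RPKM + 5), 104 genes were lower and 217 higher, so that 67.6% of calls were higher, against 55.3% in the reported fit. Leaving out 1 library each time gave 20 to 1137 higher and 0 to 1221 lower genes: 1137 and 1221 without control replicate 1, 840 and 865 without control replicate 2, 79 and 24 without mutant replicate 1, 20 and 0 without mutant replicate 2, 49 and 3 without sibling replicate 1 and 48 and 3 without sibling replicate 2. The fits without siblings, or with 1 library left out, hold fewer residual degrees of freedom, and a group left with 1 library is assumed to vary like the others.

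Other scalings, filters and limma on log2(RPKM + 1) gave 153 to 251 higher and 132 to 202 lower genes. Of the 104 named genes tested for this 86 were called, and none of the 86 changed direction under any of the 16 alternatives that tested it. Most were picked by p or fold change in these same libraries, which every alternative reuses. The unchanged direction is therefore no separate evidence for the 86. Of them, 27 were called with only the 4 libraries compared, 29 without either sibling library, 48 without mutant replicate 1, 11 without mutant replicate 2 and all 86 without either control library or by DESeq2. Of 544 list medians under alternatives, 45 moved by more than the spread between replicates.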

Other observations

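4 further genes, singled out after their values were seen because they lie at the ends of the fold changes and outside the rule for named genes, stood apart. isg15, the gene of an interferon-induced ubiquitin-like protein, had 4.01 and 5.25 RPKM in mutants, from 659 and 634 reads, against 0.0514 and 0.129 RPKM in wild-type controls, from 8 and 16 reads (log2 5.76, SE 0.442, edgeR adjusted p = 0.00865). si:dkey-204l11.1, a record with no gene name in the files, had 19.0 and 9.91 RPKM in mutants, against 0.215 and 0.204 RPKM in controls, the largest fitted rise of all genes tested (log2 6.04, SE 0.305, edgeR adjusted p = 0.00596). Both were also near 0 in the siblings, with 0.0186 and 0.0719 RPKM of isg15 and 0.157 and 0.0784 RPKM of si:dkey-204l11.1.

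At the other end, her8.2, a Hairy-related factor gene, had 0.432 and 0.435 RPKM in mutants, against 2.65 and 2.92 RPKM in controls (log2 -2.69, SE 0.234, edgeR adjusted p = 0.0113). zgc:173915, which the RefSeq gene table pairs with mfap4.2, had 1.498 and 1.87 RPKM in mutants, against 10.4 and 10.9 RPKM in controls (log2 -2.68, SE 0.202, edgeR adjusted p = 0.00846). In all 4 genes both mutant libraries lie on the same side of both control libraries.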
